A study of Drosophila melanogaster with 9 samples.

Results

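The genes described here encode the intracellular signalling proteins of the immune deficiency (IMD) pathway, namely the adaptors *imd* and *Fadd*, the caspase *Dredd*, the kinases *Tak1* and *IKKbeta* with their partners *Tab2* and *key*, the ubiquitin ligase *Diap2*, the transcription factor *Rel* and the inhibitor *pirk*. They were found by their symbols in the annotation of the array platform. Of the 10 genes, 9 were read, each by 1 probe set (a group of short probes that gives a single value), out of 18769 probe sets tested, which name 11982 genes. *Tak1*, whose kinase acts together with Tab2, was not analysed here, because the annotation used names no probe set after it. RNA of whole *y w* larvae of the third instar, a strain with body and eye colour markers for which the labels give no mutation of the pathway, had been hybridized to Affymetrix *Drosophila* arrays. Of the 9 arrays, 3 were of larvae taken 4 h after pinching with forceps, 3 of larvae taken 4 h after a clean injury, in which a fine tungsten needle pricks the body wall, and 3 of larvae without treatment. The labels call the arrays of a group biological replicates, and the sources used here do not say whether each came from a separate rearing. The p-values therefore rest on the spread between these arrays. No array of uninjured larvae kept for 4 h was used here, so each comparison with untreated larvae also spans that time and the handling, which cannot be told apart from the injury.

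In flies, peptidoglycan of Gram-negative bacteria binds the receptors PGRP-LC at the cell surface and PGRP-LE inside the cell. The adaptor Imd then gathers Fadd and Dredd, the caspase cuts Imd, and Diap2 attaches ubiquitin chains to which Tab2 and Tak1 dock. Tak1 activates the IκB kinase complex, which is made of IKKbeta and Kenny, the product of *key*, and this complex together with Dredd turns Relish, the product of *Rel*, into an active NF-κB factor. Relish switches on antibacterial peptide genes such as the diptericins in the fat body, and also *pirk*, whose product dampens the receptors. Much of this signalling runs through changes to proteins, which an array of RNA does not read.

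The values are on a log2 scale as deposited, and the medians of the arrays lay between 4.93 and 5.06. Each probe set binds with its own strength, so values were compared between groups and never between genes. A gene was said to rise or fall where limma, fitted to all 9 arrays and all 18769 probe sets, gave an adjusted p (Benjamini-Hochberg) under 0.05. Having only 3 arrays in a group limits the precision, and the table holds no detection calls. Markers of the larval fat body, midgut, salivary gland, muscle and hemocytes were all read, the dimmest at 6.73 on the log2 scale. *Lsp2*, a storage protein of the larval fat body, averaged 13.95 after pinching, 13.95 after clean injury and 13.89 in untreated larvae. These means lie near 14.40, the highest value on any array. *Fbp1*, another fat body marker, averaged 11.20 after pinching, 11.70 after clean injury and 10.80 in untreated larvae. In whole larvae a lower value can stand for fewer cells of a type or for less RNA per cell, and these cannot be told apart.

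*Rel*, the transcription factor at the end of the cascade, changed most. Its probe set (NCBI Gene ID 41087) read 8.82, 9.21 and 9.0 (log2) on the pinching arrays, 9.30, 9.46 and 9.23 on the clean injury arrays, and 7.72, 8.06 and 7.94 on the untreated arrays. Every array of injured larvae lay above every untreated array. *Rel* rose 2.15-fold after pinching (log2 change 1.10 with a standard error of 0.13, limma adjusted p = 0.000992). After clean injury it rose 2.69-fold (log2 change 1.43 with a standard error of 0.13, limma adjusted p = 0.000201). The call was made in each of the 6 fits per comparison that left out 1 array, with log2 changes from 1.01 to 1.20 after pinching and from 1.33 to 1.5 after clean injury. Between arrays that carry the same replicate number, pinching exceeded untreated by 1.10, 1.15 and 1.06, and clean injury exceeded untreated by 1.59, 1.40 and 1.29. All 3 pinching arrays lay below all 3 clean injury arrays. The log2 difference of pinching minus clean injury was -0.32 (95% interval -0.62 to -0.02), with an unadjusted p = 0.0374 and an adjusted p = 1.0 from limma, so this difference did not pass the test. Among all probe sets, 2.83% had pinching arrays that all lay below the clean injury arrays, and 2.36% had them all above.

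**Figure D1:**
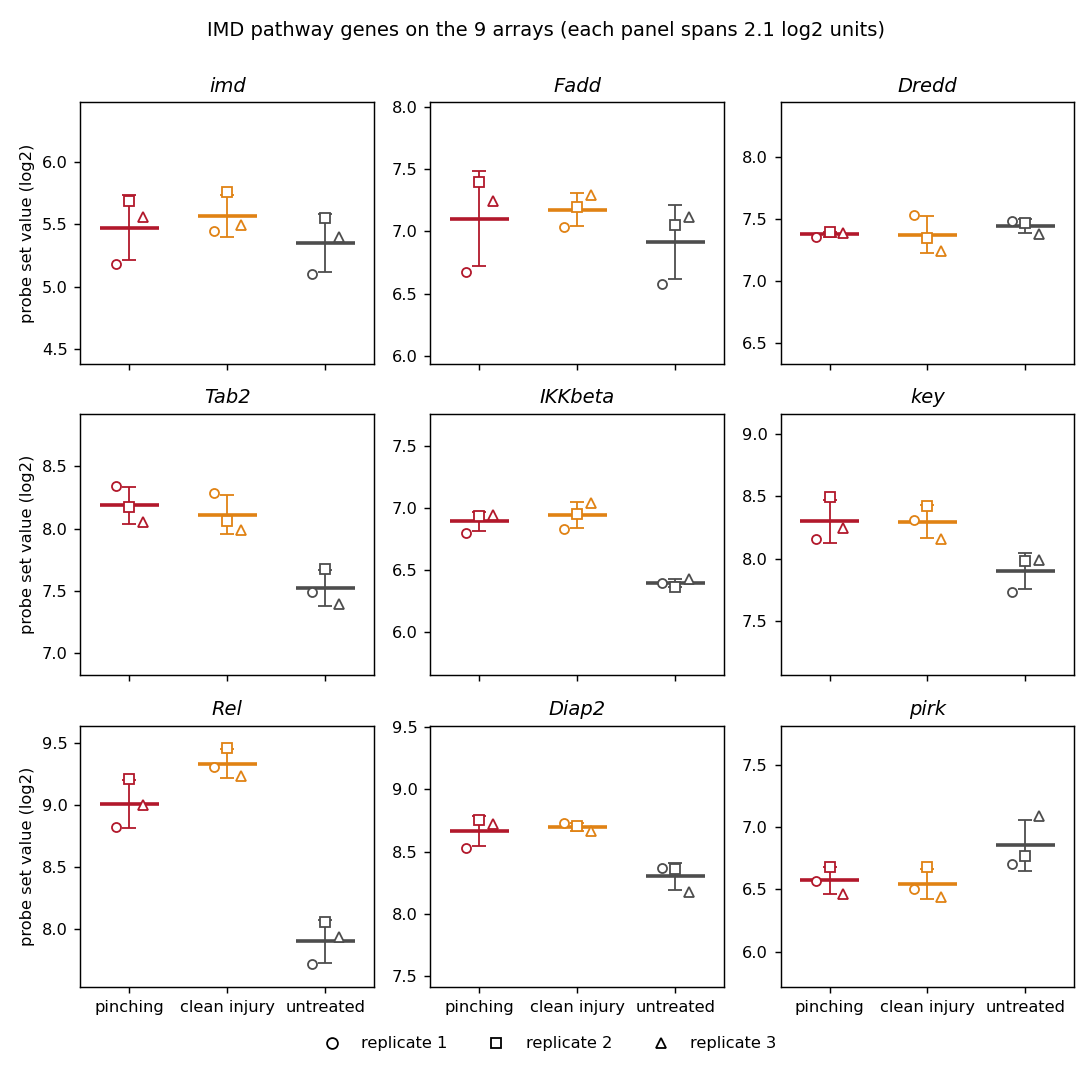
Probe set values (log2, vertical axis) of the 9 measured IMD pathway genes after pinching, after clean injury and in untreated larvae. Points are single arrays, shaped by replicate number, and lines with bars are the mean and SD of 3 arrays. For *Rel*, *Tab2*, *IKKbeta*, *key* and *Diap2* all injured arrays lie above the untreated arrays, and for *pirk* all lie below.

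Of the kinase module, *Tab2* and *IKKbeta* rose after both treatments. *Tab2* encodes the protein that ties Tak1 to ubiquitin chains. It read 8.34, 8.17 and 8.05 (log2) after pinching, 8.29, 8.06 and 7.99 after clean injury, and 7.49, 7.68 and 7.40 in untreated larvae. The groups of injured larvae lay wholly above the untreated group and overlapped each other. *Tab2* rose 1.59-fold after pinching (log2 change 0.67 with a standard error of 0.13, limma adjusted p = 0.00983) and 1.51-fold after clean injury (log2 change 0.59 with a standard error of 0.13, limma adjusted p = 0.0172). The call after pinching was lost without untreated replicate 3 (adjusted p = 0.0532 from limma). That after clean injury was lost without untreated replicate 1, untreated replicate 3, clean injury replicate 1 or clean injury replicate 2, with adjusted p from 0.0619 to 0.0800 in those limma fits.

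*IKKbeta* encodes the catalytic subunit of the IκB kinase complex. It read 6.80, 6.93 and 6.94 (log2) after pinching, 6.83, 6.95 and 7.04 after clean injury, and 6.39, 6.37 and 6.43 in untreated larvae. The untreated arrays lay close together and below all the others. The rise was 1.41-fold after pinching (log2 change 0.50 with a standard error of 0.10, limma adjusted p = 0.0128) and 1.46-fold after clean injury (log2 change 0.55 with a standard error of 0.10, limma adjusted p = 0.00783). Both calls were made in each of the 6 fits that left out 1 array.

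*key*, which encodes the regulatory subunit of the same complex, shifted the same way without passing the test. It read 8.16, 8.5 and 8.25 (log2) after pinching, 8.31, 8.43 and 8.16 after clean injury, and 7.73, 7.98 and 7.99 in untreated larvae. All arrays of injured larvae stood above all untreated arrays. The log2 change was 0.40 after pinching (standard error 0.13, limma adjusted p = 0.0895) and 0.40 after clean injury (standard error 0.13, limma adjusted p = 0.0836). With the replicate number as a block, *key* passed the test in both comparisons, at adjusted p = 0.0360 in pinched and 0.0333 in cleanly injured larvae from limma.

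*Diap2*, the gene of the ubiquitin ligase that modifies Imd, read 8.53, 8.75 and 8.72 (log2) after pinching, 8.73, 8.71 and 8.66 after clean injury, and 8.37, 8.36 and 8.17 in untreated larvae. Again no untreated array reached the level of the injured larvae. The rise after clean injury was 1.32-fold (log2 change 0.40 with a standard error of 0.11, limma adjusted p = 0.0404). After pinching the log2 change was 0.37 (standard error 0.11, limma adjusted p = 0.0597), which did not pass. The call after clean injury was lost in each of the 6 fits that left out 1 array, with adjusted p from 0.0556 (without untreated replicate 2) to 0.152 (without untreated replicate 3) from limma. The change after pinching passed without pinching replicate 1 (adjusted p = 0.0357 from limma) and also when the replicate number was a block (adjusted p = 0.0453 from limma).

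The proximal members, which act next to the receptors, stayed closer to the untreated level. *imd*, the adaptor that gave the pathway its name, read 5.18, 5.69 and 5.56 (log2) after pinching, 5.45, 5.76 and 5.50 after clean injury, and 5.10, 5.55 and 5.4 in untreated larvae. The groups overlapped, and replicate 1 was the lowest in each of them. The log2 change of *imd* was 0.13 after pinching (95% interval -0.24 to 0.49) and 0.22 after clean injury (95% interval -0.15 to 0.59), with adjusted p = 0.693 and 0.433 from limma. *Fadd*, which bridges Imd to the caspase, read 6.67, 7.40 and 7.24 (log2) after pinching, 7.03, 7.20 and 7.29 after clean injury, and 6.58, 7.05 and 7.12 in untreated larvae. Its groups overlapped as well, with log2 changes of 0.19 after pinching (95% interval -0.26 to 0.63) and 0.26 after clean injury (95% interval -0.19 to 0.70).

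*Dredd*, the caspase gene, had the narrowest spread among the proximal members on the pinching and the untreated arrays. After clean injury its SD was 0.15, against 0.13 for *Fadd*. *Dredd* read 7.35, 7.39 and 7.38 (log2) after pinching, 7.53, 7.35 and 7.24 after clean injury, and 7.48, 7.47 and 7.38 in untreated larvae. The log2 change was -0.07 after pinching (95% interval -0.30 to 0.17) and -0.07 after clean injury (95% interval -0.30 to 0.16), so that a change beyond these bounds lies outside the intervals. None of these 3 genes passed the test in either comparison, with the replicate number as a block or without it.

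*pirk* encodes an inhibitor that acts on the receptors and Imd, and it was 1 of 2 measured members, with *Dredd*, whose change was negative. It read 6.57, 6.68 and 6.46 (log2) after pinching, 6.51, 6.68 and 6.44 after clean injury, and 6.71, 6.77 and 7.09 in untreated larvae. All arrays of injured larvae lay below all untreated arrays, by a narrow margin. The log2 change was -0.28 after pinching (standard error 0.13, limma adjusted p = 0.223) and -0.31 after clean injury (standard error 0.13, limma adjusted p = 0.169), and neither passed the test. Arrays with the same number differed by -0.14, -0.08 and -0.63 in the pinching comparison, and by -0.20, -0.08 and -0.65 in the clean injury comparison, so replicate 3 carried most of them.

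In all, 3 of the 9 measured members rose and none fell after pinching, against a background of 4.21% of all probe sets called higher and 4.99% called lower in that comparison. After clean injury 4 of 9 rose and none fell, where 5.22% of all probe sets were called higher and 4.93% lower. At an unadjusted p under 0.05, limma counted 5 members after pinching, where 23.5% of all probe sets passed, and 6 after clean injury, where 25.0% passed. The median log2 change of the members was 0.37 after pinching and 0.40 after clean injury, beside -0.02 and -0.04 over all probe sets. For 5 members every array of injured larvae stood above every untreated array in both comparisons, a pattern found in 12.7% of all probe sets for pinching and 15.4% for clean injury. For 1 member, *pirk*, every such array stood below, a pattern found in 14.9% of all probe sets for pinching and 19.1% for clean injury. The comparisons share the untreated arrays, so the likeness of their values is not independent evidence. The background holds dim probe sets too, while the group means of the members lay between percentiles 53.5 and 93.4 of all probe sets. The shares are thus not of probe sets of like brightness, and the members were chosen with earlier results of these data known. With the replicate number as a block, 5 of 9 members rose after pinching, where 7.6% of all probe sets were called higher and 8.76% lower, and 5 of 9 rose after clean injury, where 10.1% were called higher and 8.58% lower.

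**Figure D2:**
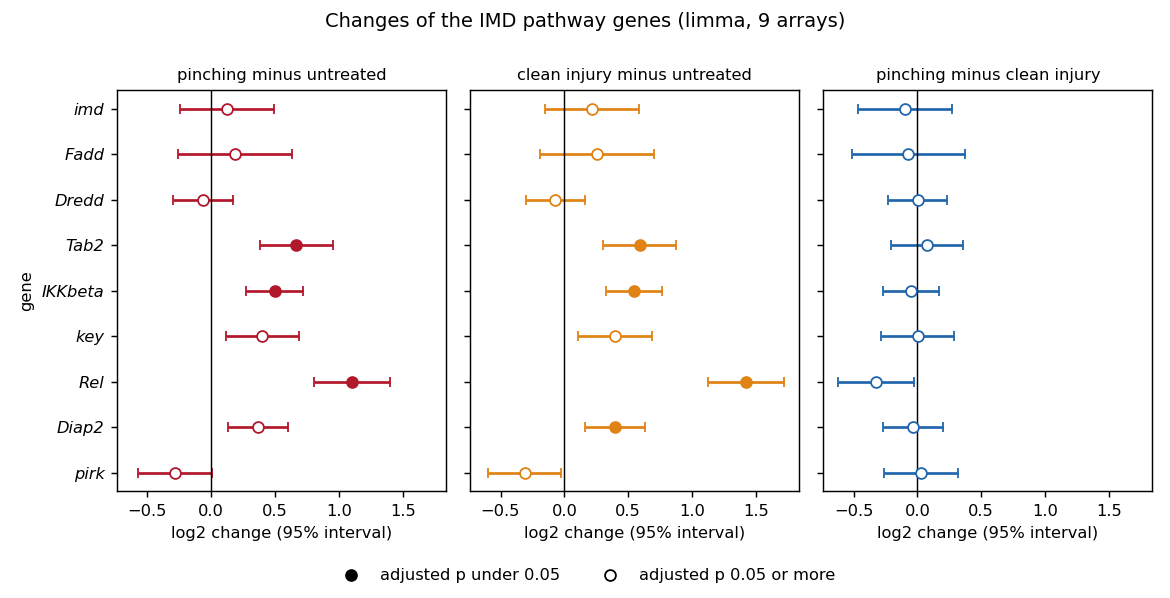
Log2 changes of the 9 measured members (horizontal axis, with 95% intervals from limma) for pinching minus untreated, clean injury minus untreated and pinching minus clean injury. Filled points passed an adjusted p under 0.05, which were 3, 4 and 0 genes in the panels.

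Between the treatments the signalling genes hardly parted. No member was called in the comparison of pinching with clean injury, in which 0.00533% of all probe sets were called lower and none higher, and at an unadjusted p under 0.05 limma counted 1 member, *Rel*, where 1.66% of all probe sets passed. With the replicate number as a block no member was called either, while 0.0426% of all probe sets were called lower. Apart from *Rel*, the log2 differences lay between -0.09 for *imd* and 0.08 for *Tab2*. The 95% intervals bound how far apart the treatments could be. For *IKKbeta* the interval was -0.27 to 0.17, for *key* -0.29 to 0.29 and for *Diap2* -0.27 to 0.20. For *Fadd*, the widest, it was -0.52 to 0.38, so that differences within those bounds are not excluded by these arrays.

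Upstream of Imd, 3 of 5 listed recognition proteins were measured, and PGRP-LC and PGRP-SD were not. *PGRP-LE*, the intracellular receptor, rose 1.34-fold after pinching (log2 change 0.42 with a standard error of 0.10, limma adjusted p = 0.0285), and its change after clean injury was 0.32 (adjusted p = 0.0711 from limma, and adjusted p = 0.0490 under the replicate block). *PGRP-LF*, a receptor relative that blocks signalling, rose 1.71-fold after clean injury (log2 change 0.77 with a standard error of 0.19, limma adjusted p = 0.0287), and its change after pinching was 0.50 (adjusted p = 0.145 from limma). The differences of pinching minus clean injury were 0.09 for *PGRP-LE* and -0.28 for *PGRP-LF*, and neither passed the test. Both calls were fragile. That of *PGRP-LE* was made in 1 of 6 fits that left out 1 array, the one without pinching replicate 1, with adjusted p from 0.0601 to 0.0911 in the others. That of *PGRP-LF* was made in 2 of 6 and lost without untreated replicate 1, untreated replicate 3, clean injury replicate 1 or clean injury replicate 2, with adjusted p from 0.0708 to 0.130 from limma. *PGRP-LA* did not pass after either treatment, with log2 changes of 0.40 and 0.39, though the first passed without pinching replicate 1.

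Some negative regulators of the pathway were among the genes that rose. The inhibitor *pirk* was not, with log2 changes of -0.28 after pinching and -0.31 after clean injury. *dnr1*, whose product restrains Dredd, read 6.20, 6.69 and 6.70 (log2) after pinching, 6.36, 6.67 and 6.55 after clean injury, and 5.71, 5.77 and 5.39 in untreated larvae. It rose 1.88-fold after pinching (log2 change 0.91 with a standard error of 0.16, limma adjusted p = 0.00719) and 1.87-fold after clean injury (log2 change 0.90 with a standard error of 0.16, limma adjusted p = 0.00725), calls made in each fit that left out 1 array. *CYLD*, which encodes an enzyme that removes ubiquitin chains, rose 1.54-fold after pinching (adjusted p = 0.0145 from limma) and 1.42-fold after clean injury (adjusted p = 0.0333 from limma). Its call after pinching was lost without untreated replicate 1, untreated replicate 3 or pinching replicate 2 (adjusted p from 0.0553 to 0.0578 from limma), and after clean injury it was kept only without clean injury replicate 3 (adjusted p from 0.0600 to 0.157 in the other fits). Of 8 measured ubiquitin enzymes and regulators, these 2 rose after each treatment and none fell. The share of all probe sets called higher was 4.21% after pinching and 5.22% after clean injury. *casp*, *ben*, *scny*, *POSH*, *trbd* and *Uev1A* did not pass, with log2 changes from -0.22 to 0.45 after pinching and from -0.07 to 0.69 after clean injury. For *ben*, which encodes a ubiquitin-conjugating enzyme, the change after clean injury of 0.69 passed with the replicate number as a block (limma adjusted p = 0.0106) and without untreated replicate 2 (adjusted p = 0.0227 from limma).

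Of the amidases, which cut peptidoglycan and so remove the ligand, 3 of 5 listed genes were measured. *PGRP-SB1* read 6.34, 7.29 and 7.36 (log2) after pinching, 7.49, 8.56 and 8.45 after clean injury, and 5.91, 5.89 and 6.76 in untreated larvae. All clean injury arrays lay above all others, while the pinching and untreated arrays overlapped. It rose 3.94-fold after clean injury (log2 change 1.98 with a standard error of 0.36, limma adjusted p = 0.00718), and its change after pinching was 0.80 (adjusted p = 0.208 from limma, and adjusted p = 0.0181 with the replicate number as a block). *PGRP-SC2*, a gut amidase, had log2 changes of 0.41 after pinching (adjusted p = 0.0702 from limma) and 0.44 after clean injury (adjusted p = 0.0488 from limma). The second of these was called in 1 of 6 fits that left out 1 array, the one without untreated replicate 2, and without that array the first was called too (adjusted p = 0.0408 from limma). With the replicate number as a block the first passed as well (adjusted p = 0.0364 from limma). *PGRP-LB* did not pass, with changes of 0.21 and 0.31.

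**Figure D3:**
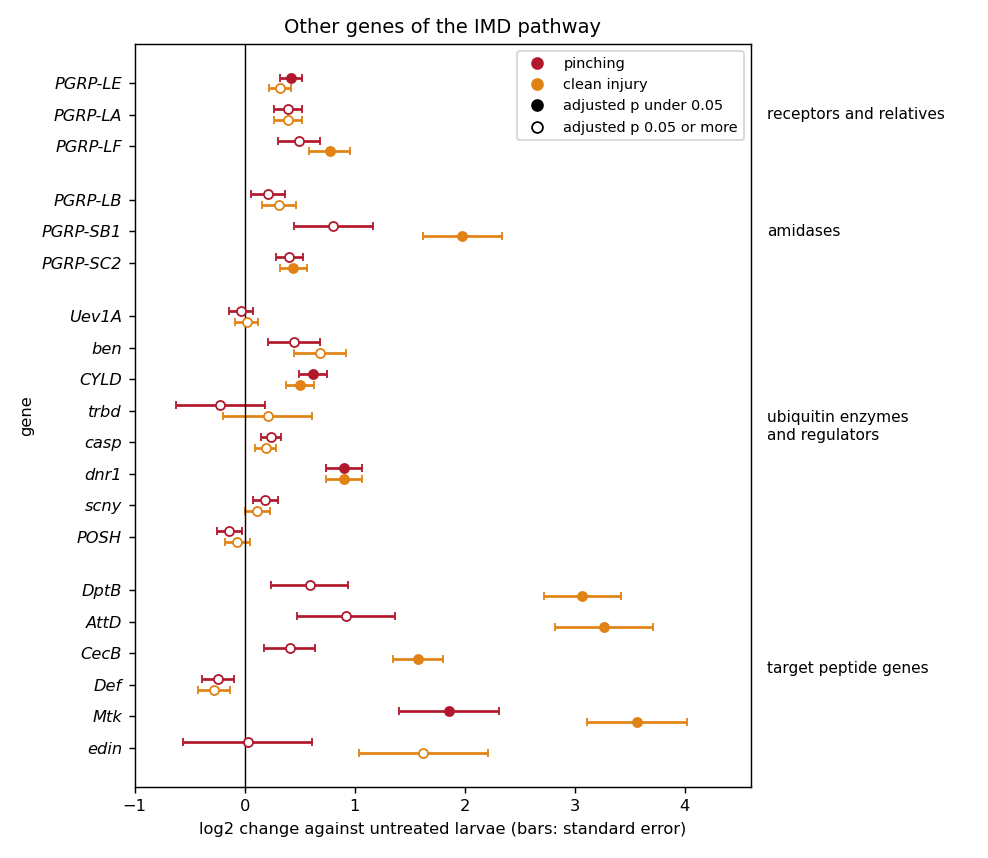
Log2 change against untreated larvae (horizontal axis, bars are the standard error from limma) of the other measured genes of the pathway, grouped by role, after pinching and after clean injury. Filled points passed an adjusted p under 0.05. Among the target peptide genes 1 of 6 passed after pinching and 4 of 6 after clean injury, all as rises. Of all probe sets, 4.21% and 5.22% were called higher.

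Downstream, of 14 listed antibacterial peptide genes that Relish is known to drive, 6 had a probe set of their own. The others, *DptA*, *AttA*, *AttB*, *AttC*, *CecA1*, *CecA2*, *CecC* and *Dro*, were not measured here, and the counts below do not speak for them. Of the 6 measured genes, 1 rose after pinching and 4 rose after clean injury, and none fell. Of all probe sets, 4.21% were called higher after pinching and 5.22% after clean injury. *DptB*, a diptericin, read 6.54, 7.31 and 7.06 (log2) after pinching, 8.96, 10.36 and 9.03 after clean injury, and 6.67, 6.43 and 6.04 in untreated larvae. The clean injury arrays stood apart, and the pinching arrays overlapped the untreated ones. *DptB* rose 8.39-fold after clean injury (log2 change 3.07 with a standard error of 0.35, limma adjusted p = 0.000598), while its log2 change after pinching was 0.59 (adjusted p = 0.343 from limma).

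*AttD*, an attacin, read 5.20, 5.24 and 3.67 (log2) after pinching, 6.92, 7.32 and 6.92 after clean injury, and 3.16, 3.52 and 4.67 in untreated larvae. Here too the clean injury arrays were clear of the untreated ones and the pinching arrays were not. It rose 9.64-fold after clean injury (adjusted p = 0.00174 from limma), and *CecB*, a cecropin, rose 2.98-fold (adjusted p = 0.00251 from limma). After pinching their log2 changes were 0.92 and 0.41 and did not pass, though that of *AttD* was 1.44 and passed without pinching replicate 3 (adjusted p = 0.0407 from limma).

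*Mtk*, the gene of the antifungal and antibacterial peptide Metchnikowin, which both the IMD and Toll pathways are known to drive, rose after both treatments, 3.63-fold after pinching (log2 change 1.86, limma adjusted p = 0.0301) and 11.8-fold after clean injury (log2 change 3.56, limma adjusted p = 0.00123). Without untreated replicate 2, the highest of its group, the log2 changes were 2.51 after pinching and 4.21 after clean injury. It read 8.98, 9.29 and 8.67 (log2) after pinching, 10.84, 10.90 and 10.30 after clean injury, and 6.22, 8.42 and 6.72 in untreated larvae. The call after pinching was lost without untreated replicate 1, untreated replicate 3, pinching replicate 1 or pinching replicate 2, with adjusted p from 0.0675 to 0.123 from limma. *edin* and *Def* did not pass after either treatment, and *edin* passed after clean injury with the replicate number as a block (adjusted p = 0.0120 from limma).

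Set directly against each other, all pinching arrays lay below all clean injury arrays for 5 of the 6 measured target genes, a pattern found in 2.83% of all probe sets. The log2 difference of pinching minus clean injury was -2.48 for *DptB* (standard error 0.35, 95% interval -3.25 to -1.71), -2.35 for *AttD*, -1.17 for *CecB*, -1.70 for *Mtk* and -1.60 for *edin*. That of *edin*, an immune-induced gene, was -0.84 without clean injury replicate 2, the array on which it read 7.57 against 5.28 and 5.32 on the others. After adjustment over all probe sets none of them passed, with adjusted p = 0.133 for *DptB* and 0.422 for *AttD* from limma, while at an unadjusted p under 0.05 limma counted all 5, where 1.66% of all probe sets passed. With the replicate number as a block *DptB* passed (adjusted p = 0.0124 from limma). *Def*, the gene of the peptide Defensin, differed by 0.03.

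**Figure D4:**
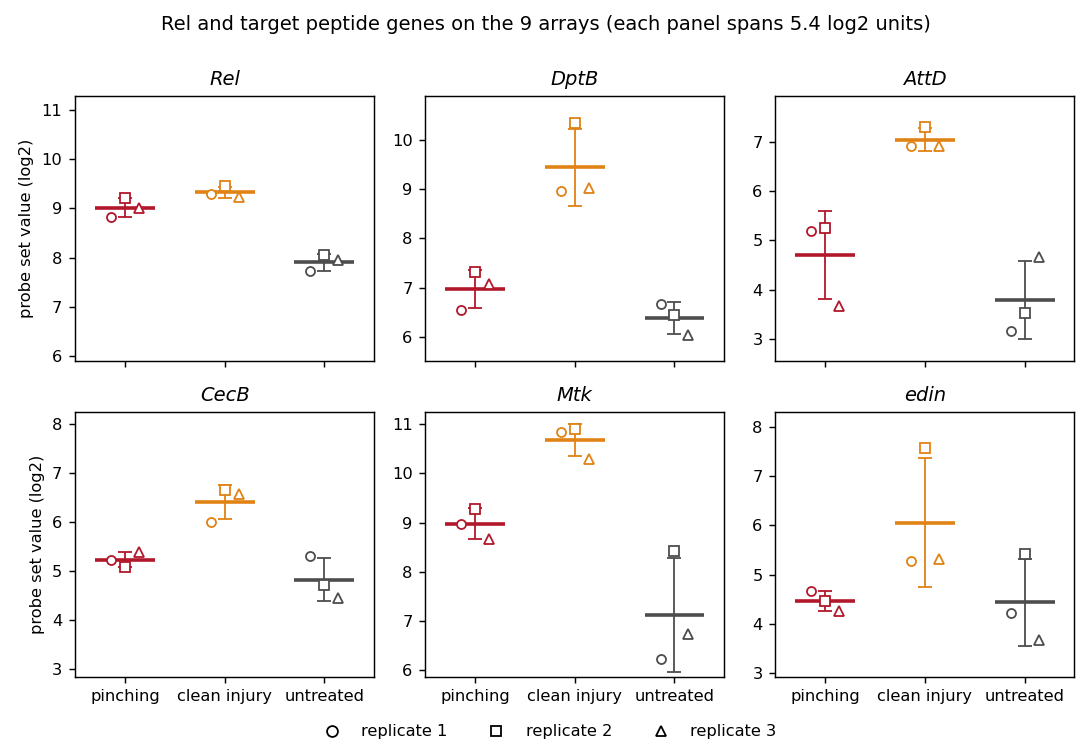
Probe set values (log2, vertical axis) of *Rel* and of 5 target peptide genes after pinching, after clean injury and in untreated larvae. Points are single arrays, shaped by replicate number, and lines with bars are the mean and SD of 3 arrays. For the target genes all clean injury arrays lie above all pinching arrays, and for *Rel* the groups are 0.32 apart on the log2 scale.

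Some markers of hemocytes, which also carry parts of the pathway, were lower in the injured larvae. Of 6 measured markers, 1 fell after pinching and 2 fell after clean injury, and under the replicate block 2 and 4 fell. Of all probe sets, 4.99% were called lower after pinching and 4.93% after clean injury, and under the block 8.76% and 8.58%. *Col4a1*, a basement membrane collagen made by hemocytes and by the fat body, had log2 changes of -0.93 after pinching (adjusted p = 0.0384 from limma) and -1.13 after clean injury (adjusted p = 0.0164 from limma). *Pxn* had changes of -0.28 and -0.64 on its brighter probe set, of which the second passed (adjusted p = 0.0154 from limma), and of -0.14 and -0.08 on its other probe set. *Ppn* had changes of -0.42 and -0.45, and *Hml* of -0.23 and -0.38. The phagocytic receptor genes differed from these, *eater* with changes of -0.09 and -0.12 and *NimC1* with 0.15 and 0.28, and none of these 4 genes passed without the block. The summed level of the 6 markers, as log2, ranged from 11.32 to 11.66 after pinching, from 11.19 to 11.58 after clean injury and from 11.80 to 12.22 in untreated larvae, with none of them near the floor of the scale. The sum is of unlogged values, so bright probe sets weigh most in it. In untreated larvae *Col4a1* averaged 10.78 and *Ppn* 10.25 (log2), against 7.25 for *NimC1* and 6.85 for *eater*, so the sum mostly follows *Col4a1* and *Ppn* and does not measure the number of hemocytes. Fat body markers, of which 3 of 6 were measured, did not pass in either comparison, though under the block *Fbp1* passed after clean injury (log2 change 0.89, limma adjusted p = 0.0326). Their summed level, as log2, was 14.78 to 14.97 after pinching, 14.80 to 14.998 after clean injury and 14.66 to 14.94 in untreated larvae. *Lsp2* and *Fbp2* are the brightest of the 3 and weigh most in this sum. Of 5 midgut markers, 3 had positive and 2 negative changes in each comparison, with median log2 changes of 0.07 after pinching and 0.03 after clean injury. Among them *alphaTry*, a trypsin gene, had changes of 1.05 after pinching (adjusted p = 0.0581 from limma, and 0.0134 under the block) and 1.13 after clean injury (adjusted p = 0.0412 from limma). *betaTry* averaged 7.80 after pinching, 7.79 after clean injury and 8.10 in untreated larvae, and *Jon99Ci* averaged 11.00, 10.83 and 11.21. All 6 salivary gland markers had positive changes in both comparisons and none passed, while under the block 1 passed after pinching and 3 after clean injury. Under the block 7.6% of all probe sets were called higher after pinching and 10.1% after clean injury. Of 3 muscle markers none passed, and *Mlc2*, a myosin light chain gene, passed under the block after clean injury (log2 change -0.50, limma adjusted p = 0.0114). The part of such shifts in the values of the signalling genes was not tested.

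The intracellular arm of the Toll pathway is the signalling module most alike in kind, and it was measured for 8 of 8 listed genes. Of these, 1 rose after pinching and 2 rose after clean injury, with medians of 0.09 and 0.22 on the log2 scale, beside 0.37 and 0.40 for the IMD members. Under the replicate block 3 rose after each treatment, since *pll*, a kinase gene, passed in both (limma adjusted p = 0.00669 for pinching and 0.00779 for clean injury) and *Tl* passed after pinching (limma adjusted p = 0.0192). Of all probe sets, 4.21% were called higher after pinching and 5.22% after clean injury, and under the block 7.6% and 10.1%. *dl*, which encodes the NF-κB factor Dorsal, rose 1.51-fold after pinching and 1.59-fold after clean injury on its brighter probe set (the first call was lost without untreated replicate 3, limma adjusted p = 0.0553), while its other probe set had log2 changes of -0.34 and 0.07. *Tl*, the receptor gene, rose 2.0-fold after clean injury, a call lost without untreated replicate 1, untreated replicate 3 or clean injury replicate 2 (limma adjusted p from 0.0756 to 0.0961), while its other probe set had log2 changes of 0.11 after pinching and -0.02 after clean injury. *Dif*, the remaining NF-κB factor gene of the fly, had log2 changes of -0.07 after pinching and 0.01 after clean injury. Its probe set averaged 2.96 after pinching, 3.04 after clean injury and 3.04 in untreated larvae, close to the low end of the scale, where a change is hard to detect. The medians of the Toll genes include *Dif*. No test of the difference between the pathways was made.

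The pattern of *Rel* over the 9 arrays was also set against 9682 probe sets of other single genes whose values spanned at least 0.5 on the log2 scale. The closest by Pearson's r were *Irc* (r = 0.997), *mthl4* (r = 0.994), *CG18507* (r = 0.994), *BomS4* (r = 0.992) and *CG30091* (r = 0.991). *Irc* encodes an immune-regulated catalase, and *BomS4* a bomanin, a short secreted immune peptide. *BomS4* had log2 changes of 2.40 after pinching and 3.44 after clean injury. These r values are a description, since all the probe sets share the arrays and the differences between groups. Among the members, r with *Rel* was 0.95 for *IKKbeta*, 0.92 for *Diap2*, 0.91 for *key*, 0.85 for *Tab2*, 0.60 for *imd*, 0.56 for *Fadd*, -0.36 for *Dredd* and -0.65 for *pirk* over the 9 arrays.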

How the data were processed

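The values deposited by the authors are on a log2 scale, 1 for each probe set on each of 9 arrays, and lie between 1.60 and 14.40. The sources used here do not give the background correction, normalization or summarization. After removal of 183 controls from 18952 probe sets, all 18769 others entered the tests, with no filter on dim ones. Genes were named from the platform annotation and their NCBI identifiers checked in RefSeq, which matched 13544 of 13647 single-gene probe sets and changed 0 symbols. A gene with several probe sets was represented by the brightest.

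A mean per group was fitted to all 9 arrays with limma 3.58.1 in R 4.3.3 (lmFit, contrasts.fit and eBayes), and two-sided p-values were adjusted by the Benjamini-Hochberg method across the 18769 probe sets. Figures used matplotlib 3.10.9 and pandas 2.3.3 under Python 3.11.15. The fit was tested on simulated data.

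Named genes were all members, the called genes of each pathway list or the 4 with the smallest p, and the 5 probe sets most like *Rel*. Further genes of the lists, and values of fits that left out an array, were picked once their values had been seen. The members and lists were chosen with earlier results of these data known. Deviations from group means correlated in all 9 pairs of arrays with the same replicate number (r from 0.189 to 0.548), against r from -0.463 to 0.160 for other numbers. An alternative fit therefore took the replicate number as a block, although the labels do not state such pairs. The main fit, which gave the calls, standard errors and intervals unless the block is named, did not use it. The fit with this block is given beside each named gene of the pathway lists whose call it changes. For the hemocyte and salivary gland markers only the counts under the block are given. Alternatives were other scalings and priors, filters, fewer arrays and the methods' t-test.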

Additional observations from a re-analysis of the deposited data

How the results depend on the processing

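After pinching, where 3 of 9 members rose, the count was 5 with quantile normalization, 5 under the replicate block and 0 with the methods' t-test after Benjamini-Hochberg adjustment (5 at its unadjusted threshold), which called 0.208% of all probe sets. After clean injury, where 4 rose, it was 1 with that t-test (5 unadjusted), which called 0.645% of all probe sets. Over fits that each left out 1 array, the counts ranged from 2 to 4 after pinching, from 2 to 3 after clean injury (2 without untreated replicate 1, untreated replicate 3, clean injury replicate 1 or clean injury replicate 2) and were 0 between the treatments. *Rel* and *IKKbeta* were called in all such fits against untreated larvae. For quantile normalization, the unadjusted t-test and the fits without 1 array, no share of all probe sets is given here. The counts of members from these alternatives therefore stand here without a background. *Tab2* after clean injury missed the threshold with quantile normalization (adjusted p = 0.0504 from limma), and *Diap2* did so with median centring (0.0601) and with an intensity trend and robust prior (0.0570). No member was called between pinching and clean injury under any alternative run, and small differences there changed sign. With quantile normalization they were 0.0068 for *IKKbeta* and 0.0062 for *Diap2*. With 1 array left out they ranged from -0.20 to 0.0529 for *imd*, -0.22 to 0.15 for *Fadd*, -0.0660 to 0.0816 for *Dredd*, -0.0018 to 0.16 for *Tab2*, -0.10 to 0.00055 for *IKKbeta*, -0.0948 to 0.0734 for *key*, -0.0273 to 0.10 for *pirk* and -0.0747 to 0.0351 for *Diap2*. For *imd* after pinching the range was -0.00065 to 0.27. For *Fadd* it was 0.02 to 0.40. Of the other pathway genes, only some were refitted in each comparison, and in those refits no change in sign was found. The refits leave out *trbd*, *Uev1A*, *scny*, *POSH* and *Dif*. For pinching against untreated larvae they also leave out *DptB*, *edin*, *cact*, *tub*, *Traf6*, *bsk* and *Mkk4*, so the sign of these changes was not checked. The fits of *edin* without single arrays, which did not cover pinching against untreated larvae, were added after seeing the data. *dl* was not called when its 2 probe sets were averaged. Leaving out probe set types that can match several transcripts or several genes removed *Dredd* and *Diap2*. The replicate block changed the calls of *key* in both comparisons with untreated larvae and of *Diap2* after pinching, and of no other member. The causes were not tested.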

Other observations

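Tak1 is also known to feed the JNK cascade, and its 6 listed genes were all measured. *Jra*, the Jun gene, rose 1.33-fold after pinching (log2 change 0.41 with a standard error of 0.11, limma adjusted p = 0.0491), a call kept only without untreated replicate 2 among the 6 fits that left out 1 array, and its log2 change after clean injury was 0.39 (adjusted p = 0.0580 from limma, and adjusted p = 0.0330 under the replicate block). *kay*, the Fos gene, had changes of 0.53 and 0.75 on its brighter probe set, which passed with the replicate number as a block (adjusted p = 0.00731 for pinching and 0.00103 for clean injury from limma), and of 0.10 and 0.10 on the other. *puc*, the phosphatase gene that the cascade switches on, had changes of 0.20 and 0.43 and did not pass. Of 4 nuclear partners of Relish, *akirin*, *srp*, *cad* and *nub*, none passed after either treatment without the block, at an adjusted p under 0.05 from limma, and at an unadjusted p under 0.05 limma counted 1 after pinching and 2 after clean injury, where 23.5% and 25.0% of all probe sets passed. With the block, *nub* passed after pinching (adjusted p = 0.0349 from limma), and *srp* and *nub* passed after clean injury (adjusted p = 0.00215 and 0.00263 from limma). These values of *nub* are of its brightest probe set, and its other 2 probe sets had log2 changes of -0.07 and -0.09 after pinching and of -0.08 and -0.07 after clean injury.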
